A study of Arabidopsis thaliana with 9 samples.

Results

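Transcript counts of Arabidopsis seedlings that lack a working *FPA* gene were compared with those of wild-type seedlings. The comparison uses 6 of the 9 libraries of the series, 3 from the *fpa* single mutant (replicates 3, 6 and 8) and 3 from wild type (replicates 1, 12 and 5), and it covers every gene in the count table. The other 3 libraries come from the *bdr1,2,3* triple mutant (replicates 2, 4 and 7), which lacks the BORDER proteins, and they enter only where a value of *fpa* is set beside another mutant. All plants were 8-day-old whole seedlings of the Columbia (Col-0) background, grown at 21 °C in long days of 16 h light and 8 h dark after 4 days of stratification, and the wild type carried neither mutation. The *fpa* mutant is one line, fpa-7, so a change in it cannot be told apart from a change linked to that line.

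FPA is a plant nuclear RNA-binding protein that controls where the 3′ ends of transcripts are made. It promotes cleavage and polyadenylation at particular sites, its own pre-mRNA among them, and its loss is known for transcripts that run on beyond their usual ends. It belongs to the autonomous flowering pathway, which keeps the floral repressor gene *FLC* low, and mutants of that pathway flower late.

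The wild-type libraries held 8676610 to 26861793 counts and the *fpa* libraries 16995153 to 20384978. Wild-type replicate 12 stood apart. It was the shallowest library, its 10 most abundant genes took 8.5% of its counts against 5.25% to 6.28% elsewhere, and it lay at -97.7 on the first principal component (32.8% of the variance of log2 CPM), where the other 8 libraries lay between -11.7 and 34.0. It is also the library that the authors' own normalized table leaves out, so the counts of called genes are given with and without it. Markers of other organs were near absent in the wild-type and *fpa* libraries. There the 2 tested floral markers summed to at most 3.69 CPM (counts scaled to a common library size by TMM). The 3 tested seed-storage markers summed to at most 9.36 CPM. The untested members of these 2 lists of 5 had at most 14 counts summed over a genotype, and *AP1* had 0 counts in both genotypes. The 9 root markers summed to 114 to 138 CPM in wild type and 102 to 131 in *fpa*. The 3 shoot markers summed to 24970 to 41430 CPM in wild type and 20170 to 24470 in *fpa*, and the 4 markers of dividing cells to 22.7 to 30.7 and 32.2 to 41.9. These last 2 sets of ranges did not overlap, although no member of either list passed the test. The gap between the shoot sums was narrow (24970 against 24470 CPM). Among single tested genes, 26.6% likewise showed no overlap between the *fpa* and wild-type libraries, so a gap of this kind was common. The part of the shoot and dividing-cell markers in the results below was not tested. In whole seedlings, fewer cells of a type and less RNA per cell cannot be told apart.

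*FPA* itself (AT2G43410, chromosome 2 from 18025247 to 18031255 in TAIR10.1, minus strand) gave 1098 counts in wild-type replicate 1, 298 in replicate 12 and 1693 in replicate 5, against 803, 773 and 797 in *fpa* replicates 3, 6 and 8. Counts listed for single libraries below keep this order of replicates, and those of *bdr1,2,3* follow replicates 2, 4 and 7. The level was 54.1 ± 10.7 CPM (SD, n = 3) in wild type and 41.5 ± 3.8 CPM (SD, n = 3) in *fpa*, a log2 difference of -0.39 (SE 0.18, edgeR quasi-likelihood F test, Benjamini-Hochberg adjusted p = 0.248). The kind of lesion in fpa-7 is not given in the sources used here, and a count over the whole gene does not show whether the transcript was intact, so it does not check the label. The flowering genes below moved in all 3 *fpa* libraries.

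Of 20413 genes tested, 262 (1.28%) were called higher and 371 (1.82%) lower in *fpa*, 633 (3.1%) in all, at an adjusted p under 0.05 (edgeR). Among the called genes the rises were larger than the falls. Median log2 fold changes were 1.38 among the higher genes and -0.90 among the lower genes, while the median over all tested genes was 0.005. At least 2-fold changes were seen in 68.3% of the higher and 38.3% of the lower genes. The higher genes were less abundant, at a median log2 CPM of 2.94 against 4.81, so these sizes compare genes of unlike abundance. Without wild-type replicate 12 the counts were 297 higher and 410 lower, and 224 of the 262 and 313 of the 371 genes were called again. Without wild-type replicate 5 the counts fell to 136 and 218, and with any of the *fpa* libraries left out (replicate 3, 6 or 8) to 97 to 112 and 102 to 145. Without wild-type replicate 1 there were 325 and 603. The share of rises among the calls was 41.4%, and it was 30.2% (332 higher, 767 lower) once trends of GC content and gene length were removed from each library.

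**Figure D1:**
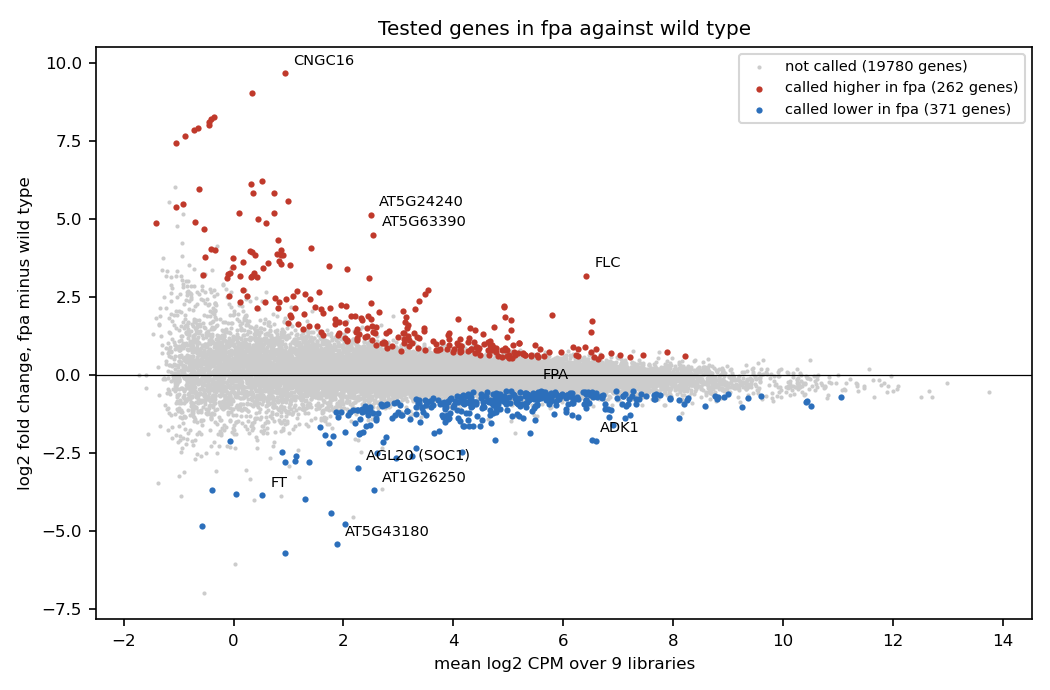
Log2 fold change of *fpa* minus wild type (vertical axis) against mean log2 CPM over the 9 libraries (horizontal axis), 1 point for each of the 20413 tested genes. Red points are the 262 genes called higher and blue points the 371 called lower. The largest fold changes upward belong to genes with low mean CPM, while *FLC* rose at a high level and *FPA* lies among the genes not called.

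Protein-coding genes made up 253 of the 262 rises and 357 of the 371 falls, beside 19802 of the 20413 tested genes. Among 102 tested non-coding RNAs, 2 rose and 4 fell, beside 1.28% and 1.82% of all tested genes. The falls included *GUT15*, a non-coding RNA named as one of a set with unstable transcripts, which had 6920, 2419 and 8304 wild-type counts and 2270, 2656 and 2435 in *fpa* (log2 fold change -1.39, SE 0.14, edgeR adjusted p = 0.000202). Of 260 tested pseudogenes, transcribed or not, 7 rose and 6 fell, against the same background. Chloroplast-encoded genes were lower as a group in their means, with a median of -1.02 on the log2 scale and 71 of 78 below wild type. Of the 78, 4 were called lower, beside 1.82% of all tested genes, and none higher. Mitochondria-encoded genes had a median of -0.76, with 19 of 24 below wild type and none called. Reads of chloroplast genes took 0.0318% to 0.0560% of the *fpa* libraries and 0.0675% to 0.0845% of the wild-type libraries.

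Some genes called lower were followed, on their 3′ side, by a gene called higher. Among the 371 lower genes, 21 had a protein-coding neighbor on their 3′ side that was called higher, out of 290 whose 3′ neighbor was tested. This is 7.24%, beside 1.28% of all tested genes called higher and 1.35% of the 3′ neighbors of the 14942 genes not called. The number of such pairs was 6 with at least 10 counts in every library, 11 at an adjusted p under 0.01, 38 with GC and length trends removed and 45 with DESeq2. Some of the higher neighbors, such as *PMEI1*, AT1G07330 and *STP9*, were near 0 in wild type and passed the filter on low counts through *fpa*. On the 5′ side of lower genes, 5 of 268 tested neighbors (1.87%) were called higher, beside 0.98% of the 5′ neighbors of genes not called. For 5′ neighbors on the opposite strand (divergent) the shares were 3.1% and 0.8%. For those on the same strand they were 0.719% and 1.15%. The neighbor here is the next protein-coding gene of the TAIR10.1 annotation, whose borders may differ from those the reads were counted on. These shares describe these libraries and no test was made of them.

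In 12 of the 21 pairs both genes lay on the same strand, so that the lower gene came first (tandem pairs), and in 9 the genes faced each other with their 3′ ends (convergent pairs). The annotated genes overlapped in 12 pairs and lay at most 100 bp apart, or overlapped, in 17. Short gaps were also usual outside these pairs. The median gap was 68.5 bp for the tested 3′ neighbors of all lower genes and 204.5 bp for those of genes not called. For convergent neighbors the medians were -35 and 7 bp (negative for an overlap), and for tandem neighbors 388.5 and 532 bp. Of 126 lower genes with a tested tandem 3′ neighbor 9.52% had a higher one, against 1.63% of genes not called. For convergent neighbors the shares were 5.49% of 164 and 1.06%. Seen from the other side, 12 of 140 higher genes (8.57%) followed a lower gene on the same strand, against 1.43% of genes not called. Reads on the strand opposite a gene may have been counted for it, since the strand setting of the counting is not given in the sources used here, so in overlapping and convergent pairs the reads of the genes cannot be told apart. The pair count was 9 to 24 with 1 library left out, lowest without *fpa* replicate 6 (12 without *fpa* replicate 3 or 8), 14 without wild-type replicate 5 and 23 without wild-type replicate 12.

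The stretches between the genes of 5 such pairs are shown because they are the DNA that separates a falling from a rising transcript. They were read from the RefSeq TAIR10.1 genome in the direction of transcription of the lower gene, 5′ to 3′. Capitals mark the last 10 annotated bases of the lower gene and the 10 bases of the neighbor nearest to it, and the lower-case stretch is the whole gap.
*AMSH2* to AT1G10610, tandem, chr1:3506150-3506195, plus strand: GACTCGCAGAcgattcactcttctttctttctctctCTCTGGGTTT
AT4G10000 to *GXM2*, tandem, chr4:6260250-6260311, minus strand: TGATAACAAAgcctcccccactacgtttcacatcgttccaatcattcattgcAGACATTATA
*mtLPD1* to *PMEI1*, tandem, chr1:17716799-17716902, minus strand: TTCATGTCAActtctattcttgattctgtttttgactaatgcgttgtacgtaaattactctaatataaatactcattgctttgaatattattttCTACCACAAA
*ADK1* to AT5G63390, tandem, chr5:25392675-25392929, minus strand: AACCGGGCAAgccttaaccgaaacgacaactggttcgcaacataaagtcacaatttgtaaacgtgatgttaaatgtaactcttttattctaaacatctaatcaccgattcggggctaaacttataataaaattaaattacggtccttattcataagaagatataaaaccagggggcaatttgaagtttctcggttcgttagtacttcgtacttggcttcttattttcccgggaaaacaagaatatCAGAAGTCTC
*RIBA2* to AT2G22460, convergent, chr2:9533057-9533103, plus strand: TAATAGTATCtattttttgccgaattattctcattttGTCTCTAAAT
The gaps measured 26, 42, 84, 235 and 27 bp. In the convergent pair the closing capitals are the 3′ end of AT2G22460, read on the opposite strand.

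The pair with the largest fall was *ADK1* (AT5G63400), an adenylate kinase, and AT5G63390, which encodes an O-fucosyltransferase family protein. *ADK1* had 2217, 1012 and 3300 wild-type counts and 581, 532 and 591 in *fpa*. AT5G63390, which begins 235 bp beyond the end of *ADK1*, had 8, 3 and 28 wild-type counts and 276, 350 and 280 in *fpa*. The groups did not overlap in CPM for either gene, which was so for all 262 higher and 371 lower genes and for 26.6% of all tested genes. *ADK1* went from 127 ± 14.8 to 29.8 ± 2.72 CPM (SD, n = 3), a log2 fold change of -2.09 (SE 0.15, edgeR adjusted p = 1.17e-05). AT5G63390 went from 0.628 ± 0.361 to 15.9 ± 2.64 CPM (SD, n = 3), a log2 fold change of 4.49 (SE 0.34, edgeR adjusted p = 1.47e-05). In *bdr1,2,3* AT5G63390 had 9, 11 and 6 counts, and set directly against that mutant *fpa* was higher by 5.24 for AT5G63390 (edgeR adjusted p = 1.49e-06) and lower for *ADK1* (log2 fold change -1.98, edgeR adjusted p = 3.47e-06).

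*mtLPD1*, a mitochondrial lipoamide dehydrogenase, fell from 11247, 6015 and 15240 wild-type counts to 7471, 7170 and 8721 in *fpa*. Scaled to library size this was a log2 fold change of -0.72 for *mtLPD1* (edgeR adjusted p = 0.0339), and the call was lost without any *fpa* library (replicate 3, 6 or 8). *mtLPD1* was also lower in *bdr1,2,3* than in wild type (-0.77, edgeR adjusted p = 0.0245), with a direct difference of 0.05 between the mutants (edgeR adjusted p = 0.94). *PMEI1*, an inhibitor of pectin methylesterase and 84 bp further on, had 1, 0 and 0 wild-type counts and 24, 50 and 16 in *fpa*. This is 83.2-fold higher, with a 95% counting interval from 14.6 to 3321, and its call was lost without *fpa* replicate 6 or without wild-type replicate 5. Pectin methylesterase inhibitors act on cell-wall pectin, whereas *mtLPD1* works in the oxidation of organic acids in mitochondria.

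*AMSH2*, named for its likeness to an animal deubiquitinating protein, had 291, 119 and 473 wild-type counts and 166, 137 and 197 in *fpa*. The bHLH gene AT1G10610, 26 bp beyond it, had 196, 40 and 275 wild-type counts and 389, 502 and 415 in *fpa*. *AMSH2* fell by 0.93 on the log2 scale (edgeR adjusted p = 0.0169) and AT1G10610 rose by 1.35 (edgeR adjusted p = 0.00754). The call of *AMSH2* was lost with any 1 *fpa* library left out (replicate 3, 6 or 8) or without wild-type replicate 5. AT1G10610 was not called in the direct comparison with *bdr1,2,3* (log2 difference 0.76, edgeR adjusted p = 0.0979).

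AT4G10000, a thioredoxin family gene, fell from 421, 153 and 537 wild-type counts to 202, 196 and 274 in *fpa* (log2 fold change -0.86, edgeR adjusted p = 0.00874). This call was lost without *fpa* replicate 6. *GXM2*, a glucuronoxylan methyltransferase-like gene 42 bp away, rose from 54, 11 and 44 to 141, 120 and 136 counts (log2 fold change 1.76, edgeR adjusted p = 0.00631). *GXM2* was also higher in *bdr1,2,3* than in wild type (log2 fold change 1.48, edgeR adjusted p = 0.0154), a comparison that shares the wild-type libraries.

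The other tandem pairs also joined genes of unlike roles, with some exceptions. *CLE41*, a peptide signal of vascular development, fell by 1.38 on the log2 scale (edgeR adjusted p = 0.00429), and AT3G24780, 1626 bp downstream, went from 12, 4 and 46 wild-type counts to 118, 142 and 121 in *fpa* (log2 fold change 2.64, edgeR adjusted p = 0.0054). AT1G18210, a calcium-binding EF-hand gene, fell by 1.28 (edgeR adjusted p = 0.00153) before *RABA6b*, a small GTPase of the Rab family that rose by 2.11 (edgeR adjusted p = 0.000234). *RPL4*, a ribosomal protein gene, fell by 0.60 (edgeR adjusted p = 0.041) before AT1G07330, which had 0, 1 and 2 wild-type counts and 25, 30 and 39 in *fpa*. AT2G21580, another ribosomal protein gene, fell by 0.95 (edgeR adjusted p = 0.0261) before *APL4*, annotated as a glucose-1-phosphate adenylyltransferase, which rose by 2.06 (edgeR adjusted p = 0.00207). The calls of *RPL4* and AT2G21580 were lost with any 1 *fpa* library left out (replicate 3, 6 or 8). *RPL4* was also not called without wild-type replicate 5. AT1G07330 lost its call without *fpa* replicate 6 or 8 or without wild-type replicate 5.

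*ACDO1*, a kinase of the chloroplast, fell by 0.59 (edgeR adjusted p = 0.0233) and *CTF7*, which acts in the cohesion of sister chromatids, went from 35, 10 and 26 wild-type counts to 107, 121 and 135 in *fpa* (log2 fold change 2.18, edgeR adjusted p = 0.00475). The call of *ACDO1* was lost with any 1 *fpa* library left out (replicate 3, 6 or 8) or without wild-type replicate 5. *CTF7* had 5, 11 and 6 counts in *bdr1,2,3*, where it was lower than in wild type (log2 fold change -1.96, edgeR adjusted p = 0.0233). Its *fpa* level was above that mutant by 4.14 on the log2 scale (edgeR adjusted p = 3.16e-05), a difference that includes this fall. The remaining tandem pairs were AT1G02475 with AT1G02470, AT3G09410 with AT3G09405 and *PSD3* with AT4G25980. The first 2 of these pairs join copies of a gene family, polyketide cyclases and pectin acetylesterases, so uniquely aligned reads may have been split between the copies. AT3G09405 went from 79, 14 and 66 wild-type counts to 405, 342 and 370 in *fpa* (log2 fold change 2.73, edgeR adjusted p = 0.000234), while AT3G09410 fell by 0.85 (edgeR adjusted p = 0.00668). The call of AT3G09410 was lost without *fpa* replicate 8, and those of AT1G02475 and AT1G02470 without *fpa* replicate 6. *PSD3* lost its call with any 1 *fpa* library left out or without wild-type replicate 5, and AT4G25980 without *fpa* replicate 6 or 8.

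The 9 convergent pairs were looked at after the values were seen. Each gene of such a pair is the 3′ neighbor of the other. A lower gene beside a higher one is the rule that picked these pairs, so they add no evidence on the order of genes. *Lhca5*, a minor antenna protein of photosystem I, fell from 2456, 1283 and 3320 wild-type counts to 1209, 1131 and 1517 in *fpa* (log2 fold change -1.11, edgeR adjusted p = 0.00332). AT1G45545, named for a family that acts in chloroplast movement, rose from 20, 6 and 27 to 175, 228 and 188 counts (log2 fold change 3.38, edgeR adjusted p = 6.54e-05). The annotated genes overlap by 192 bp. The whole antenna and photosystem list had 1 member called lower, *Lhca5*, of 41 tested (3 without wild-type replicate 1), and none higher.

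*THX*, a chloroplast thioredoxin, had 3588, 1592 and 4998 wild-type counts and 1499, 1453 and 1780 in *fpa* (log2 fold change -1.28, edgeR adjusted p = 0.000216). *STP9*, a glucose transporter known from pollen, had 4, 0 and 2 wild-type counts and 67, 101 and 78 in *fpa* (log2 fold change 5.18, SE 0.79, edgeR adjusted p = 0.00335). *RIBA2*, of riboflavin biosynthesis, fell by 0.83 (edgeR adjusted p = 0.0032), and AT2G22460, 27 bp away, went from 7, 2 and 12 to 82, 89 and 93 counts (edgeR adjusted p = 0.00769). AT5G17530, a phosphoglucosamine mutase family gene, fell by 1.54 (edgeR adjusted p = 0.000234) and AT5G17540, an acyltransferase gene, rose by 2.12 (edgeR adjusted p = 0.00551). AT4G14090, a glycosyltransferase gene beside AT4G14100, rose in *fpa* (log2 fold change 1.88, edgeR adjusted p = 0.00586) and was lower in *bdr1,2,3* than in wild type (log2 fold change -2.17, edgeR adjusted p = 0.00512). The pair of *BOA*, a relative of the clock gene *LUX*, and *UGT76E1* overlaps by 1896 bp. Both lost their calls without *fpa* replicate 3 or 6 or without wild-type replicate 5.

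Over the 21 pairs the log2 fold changes of the lower genes ran from -2.09 to -0.56 (median -0.85) and those of the higher neighbors from 1.34 to 5.97 (median 2.44). Both genes were called again without wild-type replicate 12 in 20 of the 21 pairs, the exception being AT5G27970 with AT5G27980 (edgeR adjusted p = 0.0705 for AT5G27980). Set directly against *bdr1,2,3*, 13 of the 21 lower genes were called lower in *fpa* and 14 of the 21 higher neighbors were called higher. In 9 pairs both genes differed from *bdr1,2,3* in these directions. Over all tested genes the shares were 1.38% and 2.16%. The pairs were picked by their *fpa* values, and this comparison reuses the same *fpa* libraries, so an excess over those shares was built in. In *bdr1,2,3* against wild type, 5 of the 21 higher neighbors were called, 3 of them higher, and 1 of the lower genes was called. Of the 5 pairs with the higher gene on the 5′ side, 4 were divergent, and *NDB4*, an alternative NADH dehydrogenase of mitochondria, had 8, 13 and 6 counts in *fpa*, none in wild type and 73, 70 and 63 in *bdr1,2,3*.

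**Figure D2:**
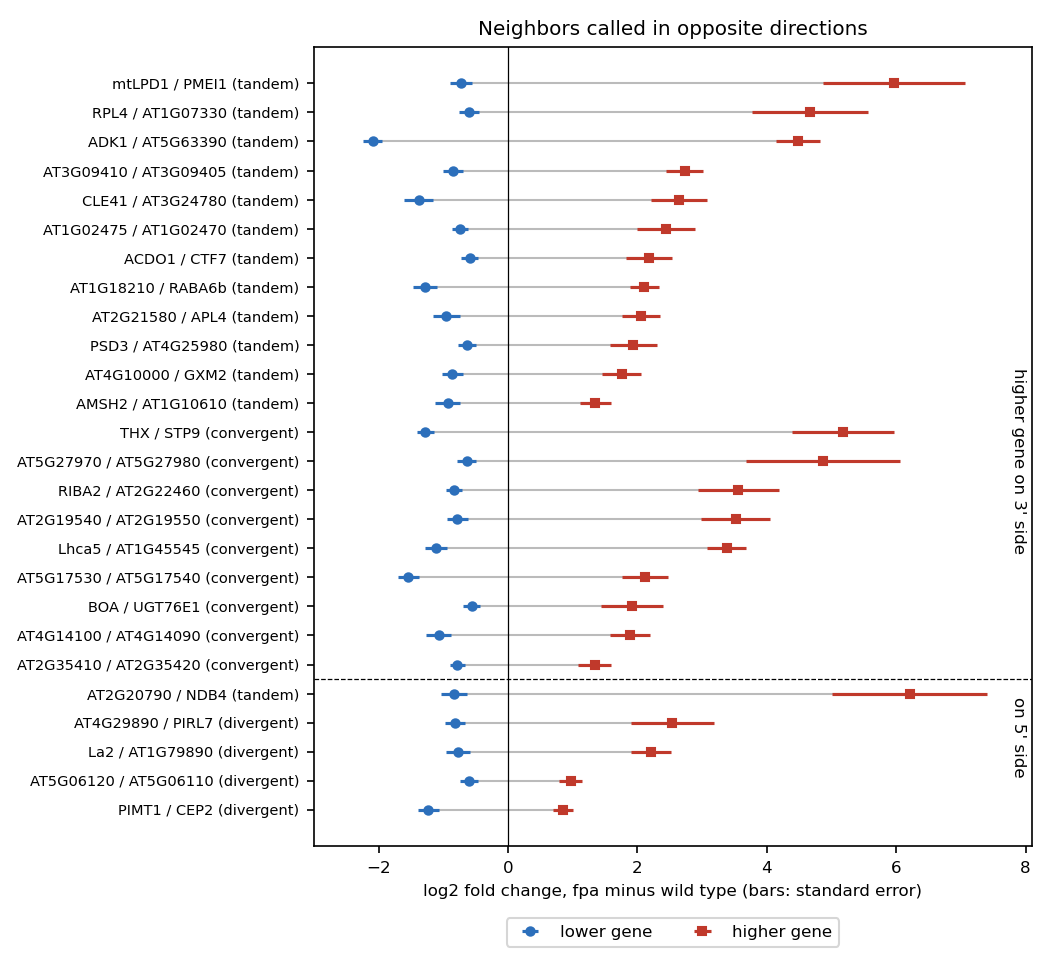
Log2 fold change (horizontal axis, *fpa* minus wild type, bars are standard errors) of the lower gene (blue circle) and the higher gene (red square) of each of the 26 adjacent pairs called in opposite directions. In the 21 pairs above the dashed line the higher gene lies on the 3′ side of the lower gene, and there the higher neighbors span 1.34 to 5.97 against -2.09 to -0.56 for the lower genes.

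Neighbors that moved the same way were also found, always as pairs. Among tested protein-coding genes in chromosomal order there were 21 groups of adjacent genes called in 1 direction, each of 2 genes, and none of 3 or more. Lower genes had a lower neighbor in 3.45% of cases on the 3′ side and 5.22% on the 5′ side, against 1.89% and 1.52% for genes not called. DESeq2 gave 70 groups and a fit of wild type and *fpa* only gave 7. Of the 21 same-way pairs 15 were lower and 6 higher, beside 371 lower among all 633 called genes. Both genes lay on 1 strand in 12 of these pairs. Among the 14942 genes not called, 7613 had their 3′ neighbor on the same strand. The count of groups is 16 when an untested gene in between ends a group, 30 without wild-type replicate 12, 36 without wild-type replicate 1, 5 without wild-type replicate 5 and 3 to 5 without an *fpa* library (replicate 3, 6 or 8).

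Several of the pairs are copies of one gene. The higher pairs included *CYP79F2* and *CYP79F1* and *MAM1* and *IMS2* (also called *MAM3*) of the glucosinolate pathway, the jacalin lectins AT1G52060 and AT1G52070, and the beta-glucosidases *BGLU21* and *BGLU22*. The last of these rose by 0.56 (edgeR adjusted p = 0.0489) and 0.61 (edgeR adjusted p = 0.0391), and neither call held without wild-type replicate 12 (edgeR adjusted p = 0.0582 for *BGLU21* and 0.0511 for *BGLU22*). The lower pairs included the aminopeptidase genes AT4G30910 (-1.87, edgeR adjusted p = 0.00012) and *LAP2* (-0.65, edgeR adjusted p = 0.0411), and the protease inhibitors AT5G43570 and *UPI*. Reads of near-identical copies may be shared or lost when only unique alignments are counted.

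The other lower pairs included one with *GRXC1*. *GRXC1*, a glutaredoxin that reduces protein disulfides, fell from 455, 112 and 595 wild-type counts to 56, 76 and 83 in *fpa* (log2 fold change -2.48, SE 0.21, edgeR adjusted p = 3.44e-05). Its divergent neighbor AT5G63020, a disease resistance gene of the NLR class, had 587, 90 and 671 wild-type counts and 177, 102 and 141 in *fpa* (log2 fold change -1.65, SE 0.28, edgeR adjusted p = 0.00632). Both differed from *bdr1,2,3* in the direct comparison, with log2 differences of -2.96 for *GRXC1* (edgeR adjusted p = 1.9e-06) and -2.07 for AT5G63020 (edgeR adjusted p = 0.000665). AT2G17340, annotated as a pantothenate kinase, fell from 908, 305 and 1313 wild-type counts to 202, 163 and 272 in *fpa* (log2 fold change -2.08, edgeR adjusted p = 3.03e-05), next to AT2G17320 of the same annotation (-0.56, edgeR adjusted p = 0.0462). The transporter *UMAMIT25* and the lipase gene AT1G09390 fell by 1.92 (edgeR adjusted p = 0.00642) and 1.27 (edgeR adjusted p = 0.0107).

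The largest fall among genes at or above 1 in mean log2 CPM was AT5G43180, a membrane protein gene of unknown function. It had 123, 16 and 83 wild-type counts and 1, 3 and 1 in *fpa*. In *bdr1,2,3* it had 153, 154 and 103 counts. The log2 fold change was -5.43 (SE 0.56, edgeR adjusted p = 0.000181), and its neighbor AT5G43190, a kelch repeat gene, also fell (-0.86, edgeR adjusted p = 0.0256).

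The genes that rose most came from almost nothing. Of the 262 higher genes, 23 had at most 3 counts in every wild-type library, and 11 of the 23 had 0 counts in all 3. Genes this low in wild type passed the filter on low counts only through a mutant, so their number is a description. For those 11 the level in *fpa* was compared with a floor of 3 counts over the wild-type group, and intervals and floors cover counting error only. *CNGC16*, a cyclic nucleotide-gated ion channel, had 0 counts in each wild-type library and 99, 110 and 92 in *fpa*, at least 92.7-fold higher. *AO4*, an aldehyde oxidase, had 0 counts in each wild-type library and 42, 81 and 73 in *fpa*, at least 60.4-fold higher. *LRE*, the LORELEI protein of pollen tube reception, had 0 counts in each wild-type library and 34, 47 and 33 in *fpa*, at least 35.1-fold higher.

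The call of each of these genes was at an edgeR adjusted p of 0.000234 for *CNGC16*, 0.00207 for *AO4* and 0.00597 for *LRE*. *CHX14*, a cation/proton exchanger, had 0, 2 and 0 wild-type counts and 45, 97 and 47 in *fpa*, which is 87.3-fold higher with a 95% counting interval of 23.8 to 726. The F-box gene AT1G32375 had 1, 0 and 3 wild-type counts and 96, 85 and 77 in *fpa* (edgeR adjusted p = 0.000234). *SYP124*, a pollen syntaxin, and *MYB120*, a transcription factor of pollen tubes, rose as well, with 17, 16 and 32 counts for *SYP124* and 38, 52 and 42 for *MYB120* in *fpa*. Of the 23 genes 18 were also called higher in *fpa* than in *bdr1,2,3*, *NDB4* was lower than in that mutant, and 4 of the 23 were pseudogenes. These genes were picked with their values known.

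In the other direction 3 called genes had at most 3 counts in every *fpa* library, and they too passed the filter only through other genotypes. They were AT5G43180, the extensin gene *EPR1* and AT4G36791. *EPR1*, a proline-rich cell-wall protein known from germinating seeds, had 7, 8 and 54 wild-type counts and 0, 2 and 0 in *fpa* (edgeR adjusted p = 0.0245).

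Among more abundant genes the largest rise was AT5G24240, a phosphatidylinositol 4-kinase gamma-like gene, with 3, 9 and 9 wild-type counts and 271, 278 and 321 in *fpa* (log2 fold change 5.13, SE 0.47, edgeR adjusted p = 6.86e-05). The non-coding RNA AT2G01422 rose from 7, 7 and 6 counts to 119, 142 and 144 (log2 fold change 4.06, edgeR adjusted p = 0.001), and had 3, 0 and 1 in *bdr1,2,3*. Another non-coding RNA, AT1G67105, rose from 52, 38 and 82 to 315, 414 and 499 counts (log2 fold change 2.60, edgeR adjusted p = 0.00035). *CHX21*, a cation/proton exchanger, *MES18*, a methyl esterase, and the NLR gene AT3G46730 completed the 12 largest rises together with *FLC* and genes of the pairs above. *MES18* had 12, 9 and 67 wild-type counts and 261, 184 and 321 in *fpa*. *CHX21* had 90, 52 and 19 counts in *bdr1,2,3*, where it was not called against wild type (log2 fold change 2.07, edgeR adjusted p = 0.0589). AT3G46730 (2.67, edgeR adjusted p = 0.032) lost its call without any *fpa* library (replicate 3, 6 or 8) and without wild-type replicate 1 or 5.

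**Figure D3:**
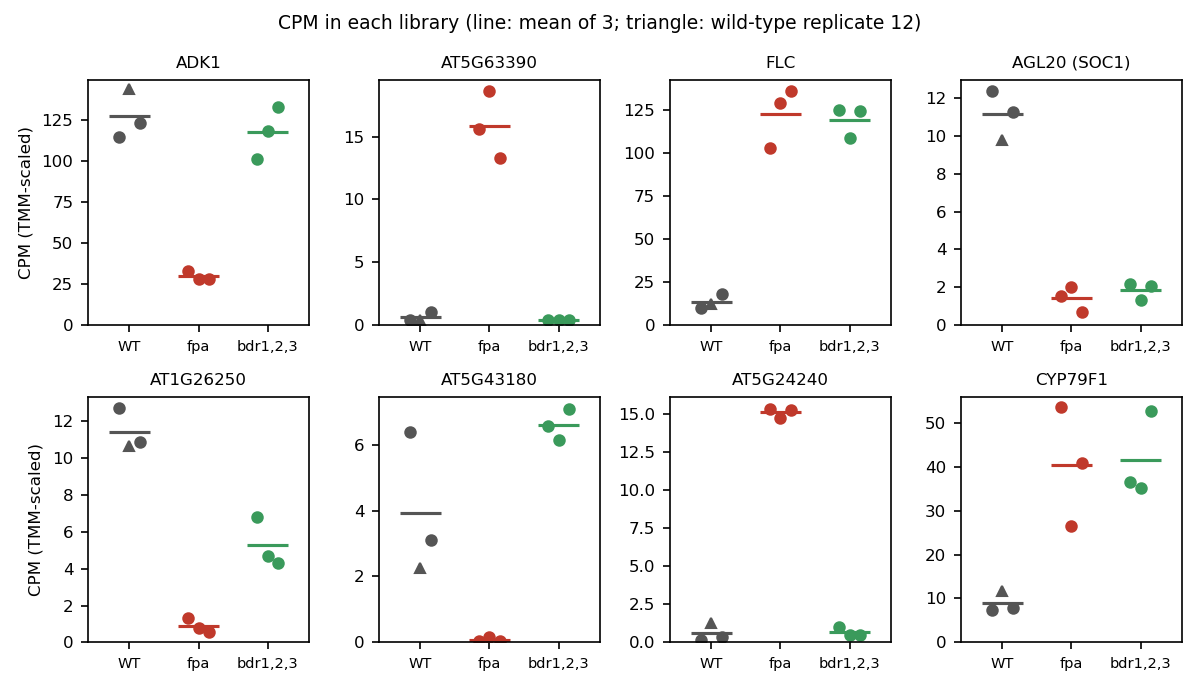
TMM-scaled CPM (vertical axes, linear from 0) of 8 genes in each of the 9 libraries, by genotype. Points are libraries, lines are means of 3, and the triangle is wild-type replicate 12. *ADK1*, *AGL20*, AT1G26250 and AT5G43180 lie lower in all 3 *fpa* libraries than in any wild-type library, and AT5G63390, *FLC*, AT5G24240 and *CYP79F1* lie higher.

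Genes that set flowering time changed in *fpa*. *FLC*, the floral repressor (AT5G10140, chromosome 5 from 3173382 to 3179448), had 196, 85 and 481 wild-type counts and 1824, 2430 and 2865 in *fpa*. It went from 13.4 ± 4.07 to 123 ± 17.3 CPM (SD, n = 3), a log2 fold change of 3.18 (SE 0.20, edgeR adjusted p = 5.3e-06). *SOC1* (listed as *AGL20*), a floral promoter that FLC represses, fell from 239, 69 and 302 to 27, 38 and 15 counts (log2 fold change -2.98, edgeR adjusted p = 0.000399). *FT*, the mobile floral signal, fell from 61, 35 and 57 to 4, 1 and 8 counts (log2 fold change -3.85, SE 0.60, edgeR adjusted p = 0.00416).

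*SVP*, a partner of FLC in repression, fell by 0.58 (edgeR adjusted p = 0.0329). In the FLC clade and SVP 1 of 7 tested genes was higher and 1 lower, and of 10 tested floral promoters none was higher and 2 were lower. None of the 9 tested genes of the autonomous pathway was called, nor any of 17 tested genes of the cleavage and polyadenylation machinery, with medians of -0.10 and -0.07. At an unadjusted p under 0.05 these lists held 2 and 1 genes (4044 of all 20413), and DESeq2 with all libraries called none in either. In the cleavage and polyadenylation list 1 gene was called lower by edgeR without wild-type replicate 12. In each list 1 gene was called lower by DESeq2 without that library, and 1 with GC and length trends removed. *FLC* was also high in *bdr1,2,3* (2920, 2739 and 1808 counts, direct log2 difference 0.04, SE 0.18, edgeR adjusted p = 0.959). The fall of *SVP* was lost without any *fpa* library (replicate 3, 6 or 8) or without wild-type replicate 5.

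The gene group with the largest share of calls was the pathway of aliphatic glucosinolates, sulfur-rich defense compounds of the cabbage family that are made from methionine. Of 20 genes tested 14 were called higher and none lower, at a median of 1.61 on the log2 scale beside 0.005 over all tested genes. The count was 15 without wild-type replicate 12, and 11 to 15 over the 6 libraries left out in turn. The calls spanned the pathway, from chain elongation to the late steps.

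In chain elongation *BCAT4*, which removes the amino group of methionine, rose from 194, 127 and 282 wild-type counts to 1163, 576 and 820 in *fpa* (log2 fold change 1.86, edgeR adjusted p = 0.00332). *MAM1*, the synthase of the elongation cycle, went from 363, 129 and 425 to 1707, 809 and 1260 counts (log2 fold change 1.92, edgeR adjusted p = 0.000579). Its neighbor *IMS2* (*MAM3*) went from 48, 14 and 61 to 304, 137 and 200 counts (log2 fold change 2.31, edgeR adjusted p = 0.00429). *IMD1*, the dehydrogenase of the cycle, rose by 1.75 (SE 0.17, edgeR adjusted p = 9.73e-05), the isomerase subunits *IPMI2* by 1.53 (edgeR adjusted p = 0.00454) and *IPMI1* by 1.43 (edgeR adjusted p = 0.0152), and *BAT5*, the plastid transporter of the 2-oxoacids, by 1.51 (edgeR adjusted p = 0.00487).

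In the core pathway *CYP79F1*, which makes the aldoximes, rose from 143, 83 and 212 wild-type counts to 945, 501 and 859 in *fpa* (log2 fold change 2.2, SE 0.26, edgeR adjusted p = 0.000561), and its neighbor *CYP79F2* from 26, 9 and 78 to 153, 94 and 148 counts (log2 fold change 1.81, edgeR adjusted p = 0.0101). *CYP83A1*, the next oxidase, rose by 1.74 (edgeR adjusted p = 0.00163), *GSTF11* by 1.89 (edgeR adjusted p = 0.00848) and the sulfotransferase *SOT17* by 0.85 (edgeR adjusted p = 0.0325). *AOP2*, a side-chain enzyme that is not functional in Columbia and is annotated as a transcribed pseudogene, rose by 1.89 (edgeR adjusted p = 0.00897). Of the regulators *MYB29* went from 32, 4 and 43 to 69, 102 and 87 counts (log2 fold change 1.69, edgeR adjusted p = 0.0149), and *MYB28* was not called (log2 fold change 0.33, edgeR adjusted p = 0.184).

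The pathway was also higher in *bdr1,2,3*, where 11 of the 20 genes were called higher and the median was 1.36. That comparison shares the wild-type libraries. Directly against *bdr1,2,3*, 1 of the 20 genes was called higher in *fpa*, *IMS2*, which had 81, 44 and 56 counts in *bdr1,2,3* (log2 difference 1.92, SE 0.35, edgeR adjusted p = 0.00632). For *CYP79F1* the direct difference was -0.04 (SE 0.24, edgeR adjusted p = 0.973).

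**Figure D4:**
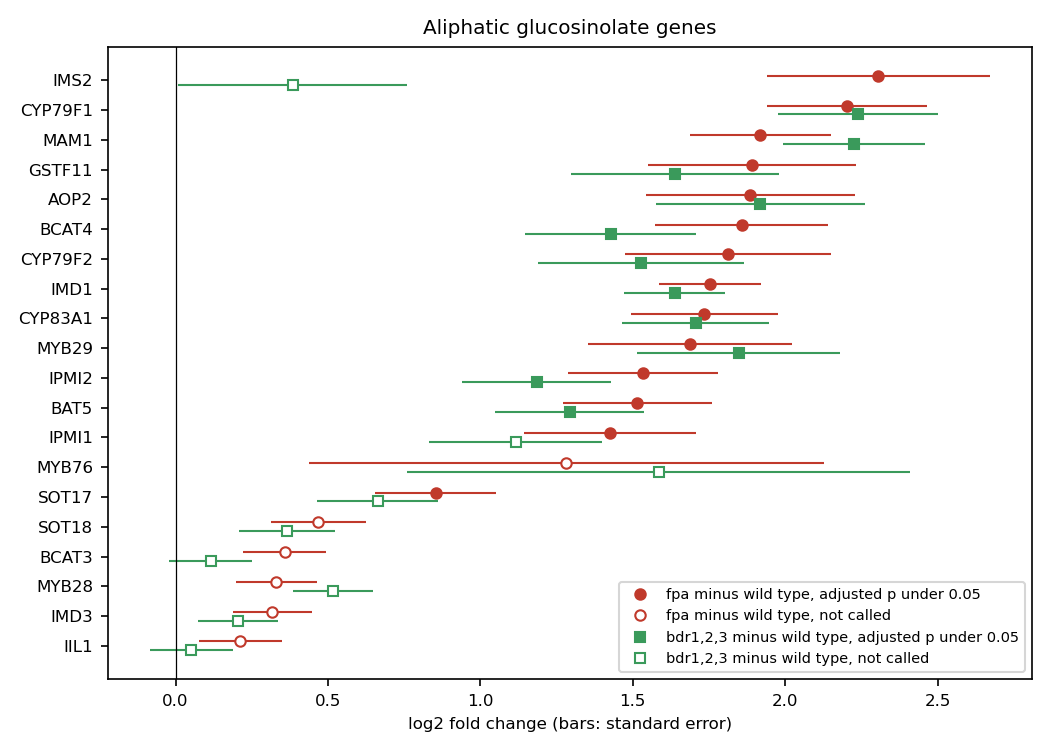
Log2 fold changes against wild type (horizontal axis, bars are standard errors) of the 20 aliphatic glucosinolate genes in *fpa* (red circles) and *bdr1,2,3* (green squares), filled where called and open where not. In *fpa* 14 genes are called, from 0.85 for *SOT17* to 2.31 for *IMS2*, and *IMS2* is the gene where the mutants lie apart.

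Other sulfur and defense genes moved in smaller numbers. Of 15 tested genes of camalexin and indole glucosinolates, made from tryptophan, 1 rose (*UGT74B1*, a glucosyltransferase of the core pathway shared with the aliphatic compounds, by 0.59, edgeR adjusted p = 0.0404) and 1 fell. The fall was *IGMT2*, an indole glucosinolate methyltransferase, which had 368, 20 and 443 wild-type counts and 35, 44 and 42 in *fpa*, so that wild-type replicate 12 alone lay near *fpa* (log2 fold change -2.65, SE 0.68, edgeR adjusted p = 0.0494, and 0.00504 without that library, when 4 genes of the list were called lower). No gene of the list was called lower with any other library left out (*fpa* replicate 3, 6 or 8, wild-type replicate 1 or 5), nor by DESeq2, and *UGT74B1* was lost without any *fpa* library or wild-type replicate 5. Of 11 tested genes of sulfur starvation 2 rose, *LSU1* from 36, 18 and 98 to 163, 142 and 245 counts (log2 fold change 1.79, edgeR adjusted p = 0.00848) and *APR1*, the adenosine phosphosulfate reductase, by 0.72 (edgeR adjusted p = 0.0339), with a list median of 0.57. Without *fpa* replicate 8 neither was called, and 1 was called without *fpa* replicate 3 or 6 or wild-type replicate 1 or 5. None of 16 tested genes of salicylic acid defense was called by edgeR or DESeq2 with all libraries (median 0.08, with 3 at an unadjusted p under 0.05). Without wild-type replicate 12 edgeR called 1 of them lower and DESeq2 called 2 lower.

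Of 23 tested jasmonate genes 3 rose, *LOX2* (0.82, edgeR adjusted p = 0.0234), *AOC2* (0.65, edgeR adjusted p = 0.0304) and *PDF1.2*, with a list median of 0.02. *LOX2* and *AOC2* make jasmonate and *PDF1.2* is a defensin that responds to it. *PDF1.2* had 152, 29 and 14 counts in *fpa* replicates 3, 6 and 8 and 1, 0 and 5 in wild type, so most of its *fpa* counts came from replicate 3. No jasmonate gene was called without *fpa* replicate 3, without wild-type replicate 1 or without wild-type replicate 5, 2 were called without *fpa* replicate 6 and 1 without *fpa* replicate 8. Another defensin gene, *PDF1.3* (AT2G26010), had the same uneven spread, with 155, 20 and 12 counts in *fpa* and 0, 0 and 3 in wild type (edgeR adjusted p = 0.0246), and reads of close copies in this family may be shared.

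Of 18 tested genes of cold, drought and abscisic acid responses 3 fell and 1 rose, and the list median was -0.68. *KIN2*, a cold-induced protein, fell from 2217, 1493 and 3066 wild-type counts to 927, 946 and 1433 in *fpa* (log2 fold change -1.36, edgeR adjusted p = 0.00429). *COR413IM1*, a chloroplast membrane protein of cold tolerance, fell by 1.03 (edgeR adjusted p = 0.00535) and the dehydrin *RAB18* by 0.94 (edgeR adjusted p = 0.0234), while the dehydrin *LTI30* rose by 0.94 (edgeR adjusted p = 0.0256). *KIN2* (-1.28, edgeR adjusted p = 0.00363) and *RAB18* (-0.98, edgeR adjusted p = 0.0138) were also lower than in *bdr1,2,3*. Without an *fpa* library (replicate 3, 6 or 8) 2 of the list were lower and *LTI30* was not called. The whole family of late embryogenesis abundant proteins and dehydrins had 5 lower and 1 higher of 70, with a median of -0.39, and 0 to 5 lower when each library was left out, 0 without *fpa* replicate 8, 1 without *fpa* replicate 3 and 3 without *fpa* replicate 6 or wild-type replicate 12.

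*ICL*, the isocitrate lyase of the glyoxylate cycle that turns stored lipid into sugar, fell from 1768, 1596 and 2940 wild-type counts to 440, 584 and 885 in *fpa* (log2 fold change -2.12, SE 0.29, edgeR adjusted p = 0.00142). Wild-type replicate 12 was the highest of the wild-type libraries relative to its depth, and without it the change was -1.62 (edgeR adjusted p = 6.28e-05). *BETA-TIP*, a water channel of seed storage vacuoles, fell by 1.81 (edgeR adjusted p = 0.0168) and *M17*, a seed protein, by 1.52 (edgeR adjusted p = 0.016). Of 30 tested water channel genes (aquaporins) 1 was called lower, and none with any 1 *fpa* library left out (replicate 3, 6 or 8). *ICL*, *BETA-TIP* and *M17* were chosen after their values were seen, and of 3 tested seed-storage markers none was called (edgeR or DESeq2, and none at an unadjusted p under 0.05). The median of those markers was -1.19, and 0.24 without wild-type replicate 12.

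Cell-wall families changed in both directions. Of 201 tested extensins, proline-rich proteins and arabinogalactan proteins 10 fell and 1 rose, with a median of -0.23 and a background of 1.82% lower. AT1G26250, an extensin-like gene, fell from 245, 75 and 291 wild-type counts to 23, 15 and 12 in *fpa* (log2 fold change -3.69, SE 0.32, edgeR adjusted p = 5.06e-05), and was lower than in *bdr1,2,3* as well (-2.58, edgeR adjusted p = 0.00027). It also fell in *bdr1,2,3* against wild type (-1.11, edgeR adjusted p = 0.0451), where 12 members of these families were lower and none higher. AT5G15780 fell by 1.19 (edgeR adjusted p = 0.00897) and *AGP10* by 1.01 (edgeR adjusted p = 0.0137). The number that fell was 1 to 4 without an *fpa* library (replicate 8, 6 or 3), and 24 without wild-type replicate 1.

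Of 50 tested expansins and xyloglucan endotransglucosylases, enzymes and proteins that loosen walls, 5 rose and 2 fell, beside 1.28% and 1.82% of all tested genes. *XTH13* rose from 31, 9 and 48 wild-type counts to 84, 86 and 116 in *fpa* (log2 fold change 1.62, edgeR adjusted p = 0.00668), *XTH17* by 0.99 (edgeR adjusted p = 0.0202) and *XTH14* by 0.90 (edgeR adjusted p = 0.0246). The rises fell to 1 without *fpa* replicate 3 or 6, and to 2 without *fpa* replicate 8 or wild-type replicate 5 (3 without wild-type replicate 1), and no fall was called without *fpa* replicate 3 or 8. Of 56 tested class III peroxidases 5 rose and 3 fell, against the same background. AT2G38390 rose from 195, 76 and 438 to 692, 488 and 779 counts (log2 fold change 1.44, edgeR adjusted p = 0.00207), and AT5G64120 fell from 3895, 821 and 5966 to 1070, 1282 and 1047 (log2 fold change -1.60, edgeR adjusted p = 0.00736). AT4G25980 is the higher gene of the *PSD3* pair. With a library left out the family had 2 to 8 members higher (2 without *fpa* replicate 3, 6 or 8, 3 without wild-type replicate 5 and 8 without wild-type replicate 12) and 0 to 4 lower (0 without *fpa* replicate 8, 1 without *fpa* replicate 3 or 6).

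Proteases and their inhibitors had 18 lower and 3 higher of 363 tested, beside 1.82% and 1.28% of all genes, and 13 lower and 1 higher in *bdr1,2,3*. In *fpa* there were 3 to 27 lower with a library left out (3 or 4 without any *fpa* library, replicate 3, 6 or 8, 8 without wild-type replicate 5, 27 without wild-type replicate 1). The aminopeptidase gene AT4G30910 went from 1227, 589 and 1736 wild-type counts to 426, 364 and 306 in *fpa* (log2 fold change -1.87, edgeR adjusted p = 0.00012), AT2G20725 fell by 1.38 (edgeR adjusted p = 0.00142) and the carboxypeptidase *scpl29* by 0.95 (edgeR adjusted p = 0.00429). The family median was -0.03, with members from -3.08 to 3.61, and 85 of 363 had an unadjusted p under 0.05. DESeq2 called 35 lower and 8 higher. *SPPL5*, a signal peptide peptidase, was among the rises (2.02, edgeR adjusted p = 0.00534).

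Transporters had 14 lower and 4 higher of 435 tested, beside 1.82% lower and 1.28% higher over all genes, with a median of -0.17. In *bdr1,2,3* 15 were lower and 2 higher against the same wild-type libraries. In *fpa* there were 1 to 33 lower with a library left out (1 without *fpa* replicate 8, 3 without *fpa* replicate 3, 4 without *fpa* replicate 6, 5 without wild-type replicate 5 and 33 without wild-type replicate 1). The falls included *UMAMIT25*, *SULTR2;1*, a sulfate transporter (-0.79, edgeR adjusted p = 0.012), and the MATE gene AT3G03620, which had 41, 13 and 81 wild-type counts and 9, 7 and 8 in *fpa* (-2.49, edgeR adjusted p = 0.0136). Among clock genes 2 of 14 tested fell, *PCL1* (also *LUX*), a component of the evening complex (-0.67, edgeR adjusted p = 0.0134), and *TCP11* as annotated here (AT5G08330, -0.73, edgeR adjusted p = 0.0177). Neither was called without an *fpa* library (replicate 3, 6 or 8).

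**Figure D5:**
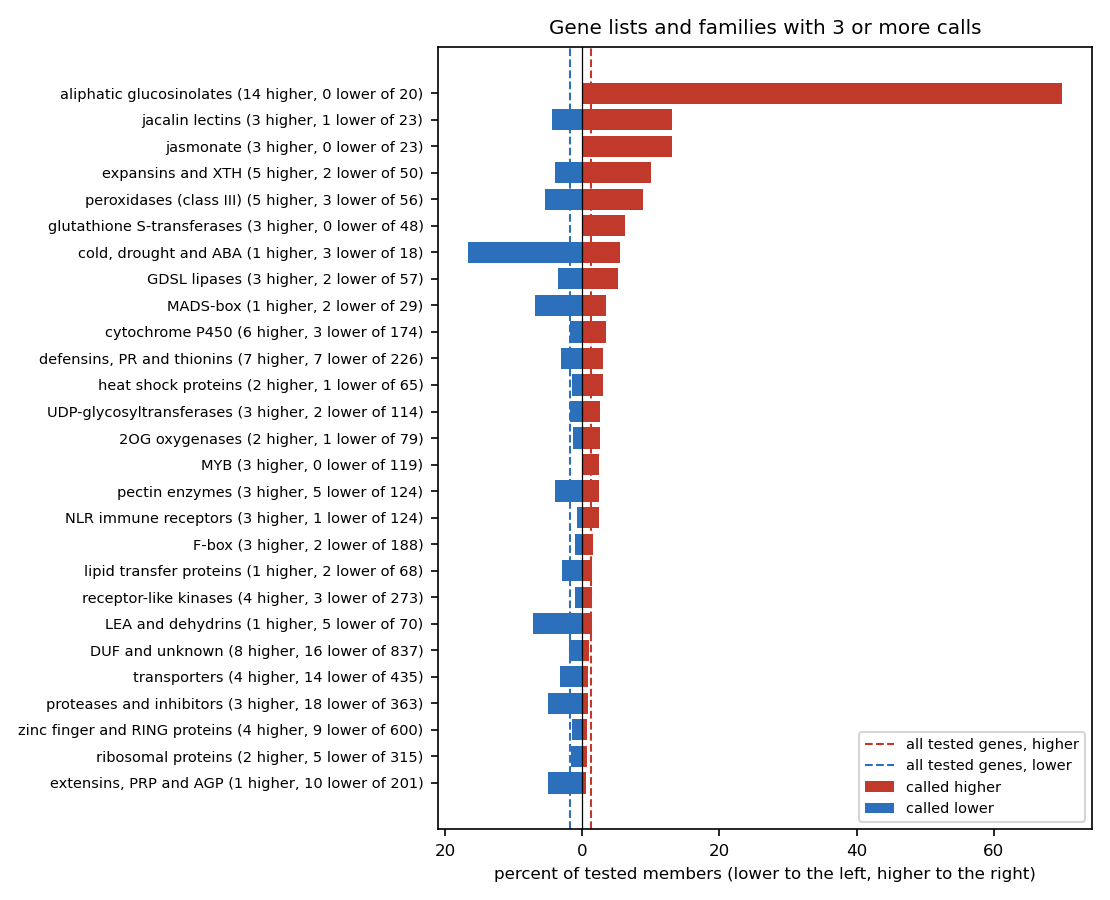
Percent of tested members called higher (red, to the right) and lower (blue, to the left) in *fpa*, for gene lists and product families with 3 or more calls. The dashed lines are the shares over all tested genes, 1.28% higher and 1.82% lower, and the aliphatic glucosinolate bar (14 of 20) is the longest.

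Many large groups stayed near the background. No member was called among 51 tested WRKY factors, 72 AP2/ERF factors, 46 histones, 87 Aux/IAA, GH3 and SAUR genes, 15 Calvin cycle genes, 14 genes of chlorophyll biosynthesis, 15 nitrogen genes, 12 genes of the unfolded protein response and 11 genes of triterpene clusters (edgeR), and the medians of these lists lay between -0.30 and 0.18. At an unadjusted p under 0.05 they held 6, 12, 4, 14, 3, 1, 4, 4 and 0 genes in that order, and DESeq2 called at most 3 of a list higher and at most 2 lower. Ribosomal proteins had 2 higher and 5 lower of 315 tested, pentatricopeptide repeat proteins 1 and 1 of 240, and receptor-like kinases 4 and 3 of 273, and these few calls shifted with the library left out. The lists of anthocyanins, iron, phosphate starvation and root hair genes had 14, 22, 15 and 7 tested members, with medians of 0.51, 0.12, -0.17 and 0.45. At an unadjusted p under 0.05 (edgeR) they held 5, 3, 3 and 2 genes. In lists this small a single call lies above the shares over all tested genes, 1.28% higher and 1.82% lower. In each of these lists 1 member was called. They were *LDOX*, a late enzyme of anthocyanin synthesis (1, 2 and 5 wild-type counts and 30, 30 and 27 in *fpa*, edgeR adjusted p = 0.0205), *NAS4*, a nicotianamine synthase (0.74, edgeR adjusted p = 0.0371), *PHT1;1*, a phosphate transporter (-0.67, edgeR adjusted p = 0.045, not called without wild-type replicate 12), and *COW1*, a phosphatidylinositol transfer protein of root hair growth (1.48, edgeR adjusted p = 0.0412). None of these calls held without any of the *fpa* libraries (replicate 3, 6 or 8) or without wild-type replicate 5, and *LDOX* and *NAS4* were also lost without wild-type replicate 1.

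The remaining large falls were of varied function. *GLP9*, a germin-like protein of the apoplast, had 253, 18 and 343 wild-type counts and 5, 12 and 3 in *fpa* (log2 fold change -4.78, SE 0.80, edgeR adjusted p = 0.00586). The groups came close for *GLP9* only through replicate 12. AT3G05170, a phosphoglycerate mutase family gene, fell from 62, 12 and 93 to 8, 1 and 1 counts (-3.99, edgeR adjusted p = 0.00324), and *AKR4C10*, an aldo-keto reductase, from 265, 63 and 390 to 43, 26 and 50 (-2.61, edgeR adjusted p = 0.000143). Both were lower than in *bdr1,2,3* too (-4.43 for AT3G05170, edgeR adjusted p = 0.000581, and -2.71 for *AKR4C10*, edgeR adjusted p = 2.91e-05).

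AT3G01345 had 152, 87 and 277 wild-type counts, 2, 13 and 12 in *fpa* and 6, 5 and 2 in *bdr1,2,3*, so its fall (-4.42, SE 0.44, edgeR adjusted p = 0.000143) was seen in both mutants. *MRD1* (AT1G53480), with 72, 56 and 157 wild-type counts, 0, 1 and 5 in *fpa* and 7, 5 and 2 in *bdr1,2,3*, had a mean log2 CPM under 1 and was picked with its values known (-5.72, edgeR adjusted p = 0.000421). The jacalin lectin AT3G21380 fell in *fpa* (46, 22 and 59 wild-type counts, 5, 7 and 9 in *fpa*, edgeR adjusted p = 0.00597), while 3 other jacalin lectins rose, of 23 tested. *QWRF3* and *PER4* completed the 12 largest falls, with log2 fold changes of -2.59 (edgeR adjusted p = 0.00548) and -2.52 (edgeR adjusted p = 0.0186), together with the aspartyl protease gene AT5G48430 (-2.79, edgeR adjusted p = 0.0467). *PER4* and AT5G48430 lost their calls without any *fpa* library (replicate 3, 6 or 8), and AT5G48430 also without wild-type replicate 1 or 5.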

How the data were processed

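RNA from 8-day-old seedlings was sequenced as single-end reads in 9 libraries, 3 for each genotype, and the methods describe biological triplicates for wild type and *bdr1,2,3*. For *fpa* the labels give separate samples, so its p-values may measure technical spread. Per the submitters' notes the authors aligned reads to TAIR10 with TopHat2 2.0.8, kept unique alignments and counted them per gene with featureCounts, and they deposited raw counts for 33602 genes. The strand setting of the counting is not given in the sources used here. The authors also deposited a normalized signal (counts divided by a size factor per library) for 8 libraries and 23072 genes, which was used only to see which libraries it holds. Columns without a known sample numbered 0.

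All 9 libraries were fitted together with edgeR 4.0.16 in R 4.3.3 (filterByExpr, TMM, quasi-likelihood test, two-sided, Benjamini-Hochberg adjusted p under 0.05). Standard errors were taken as log2 fold change over the root of F. The common biological coefficient of variation was 0.188. CPM are TMM-scaled. Counting intervals are exact (Clopper-Pearson, 95%). The script was tested on simulated data. Gene borders come from RefSeq TAIR10.1, which matched 98.5% of nuclear identifiers. Python 3.11.15, pandas 2.3.3, scipy 1.17.1 and matplotlib 3.10.9 made the tables and plots.

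Named genes are *FPA*, *FLC*, the 12 largest rises and 12 largest falls among called genes with mean log2 CPM of at least 1 and non-overlapping libraries, the tandem pairs of a lower gene followed by a higher gene, and up to 4 called members per list or 3 per family with the smallest p. Other genes, among them the convergent pairs, the further glucosinolate genes, the other same-way neighbors and the genes near 0 in wild type, were chosen after their values were seen. The members and lists were chosen with earlier results of these data known. Of 374 list symbols, 18 matched no annotated gene. Alternatives were DESeq2 1.42.0, RLE size factors, no filter, a fit of wild type and *fpa* only, a minimum of 10 counts per library, an adjusted p under 0.01, removal of GC and length trends, and each library left out. DESeq2 without wild-type replicate 12 was chosen after seeing the data.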

Additional observations from a re-analysis of the deposited data

How the results depend on the processing

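Depth limits what can be said of genes with few counts. The called genes numbered 584 higher and 835 lower with DESeq2, 483 and 600 with DESeq2 without wild-type replicate 12 (an alternative chosen after seeing the data), 156 and 298 with at least 10 counts in every library, 366 and 575 without a filter, 181 and 207 when only wild type and *fpa* were fitted, 332 and 767 with GC and length trends removed, and 87 and 100 at an adjusted p under 0.01. With 1 library left out they ran from 97 to 325 higher and from 102 to 603 lower. RLE size factors gave 257 and 367. Lower genes with a higher 3′ neighbor numbered 45, 32, 6, 38 and 11 with DESeq2, DESeq2 without wild-type replicate 12, at least 10 counts, GC and length trends removed and an adjusted p under 0.01, and 9 to 24 with 1 library left out. Same-way neighbor groups numbered 70, 41, 32, 7, 58 and 2 with DESeq2, DESeq2 without wild-type replicate 12, no filter, only wild type and *fpa*, GC and length trends removed and an adjusted p under 0.01, and 3 to 36 with 1 library left out. The cause of these differences was not tested, apart from the fewer samples or genes that some settings use. Of 85 named genes none changed direction under any alternative, 46 kept their side of the threshold or gained a call throughout, and 39 lost their call under at least 1 alternative. No paired analysis was possible because the groups compared share no replicate numbers.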
